A study of Mus musculus with 33 samples.

Results

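The genes described here are 10 that are used to recognise lipid-associated, TREM2-dependent macrophages: Trem2, Tyrobp, Apoe, Spp1, Gpnmb, Cd9, Lpl, Cst7, Fabp5 and Lgals3. They were taken as a fixed list by name, 10 of the 32285 genes measured, and all 10 were present in every matrix. Their levels were followed across macrophage types, tissues and biotin sorts in mouse single-cell RNA-seq data. In SAMENT, a sortase A-based niche labelling, tumour cells carry an enzyme that puts biotin on the cells beside them, so a biotin positive cell lay close to a tumour cell and a biotin negative cell of the same tissue did not receive the label. The intracardiac experiment has 4 biotin positive and 4 biotin negative samples from each of 4 tissues: lung, liver, brain, and bone (femurs and tibias). In a further experiment, named IIA in the labels, 6 biotin positive and 6 biotin negative bone samples, each sort numbered 1 to 6, were read in 1 hashtagged pool. All groups shared the injected tumour cells, overnight substrate labelling and enzymatic dissociation, and the sources used here give no strain, age or untreated tissue. The negative cells are therefore unlabelled cells of tumour-bearing mice, not cells of healthy mice.

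TREM2 is a surface receptor of macrophages and microglia that binds lipids and lipoproteins, among them apolipoprotein E, and signals through the adaptor TYROBP (DAP12). In fat-laden tissue, damaged brain and tumours, macrophages that take up lipid or cell debris are known to express TREM2 together with lipid-handling proteins (APOE, LPL, FABP5), secreted proteins (osteopontin, encoded by Spp1, and galectin-3, encoded by Lgals3) and lysosomal or membrane proteins (GPNMB, CD9, the cystatin CST7). The same genes are also used by other cells: osteopontin by stromal cells, CST7 by killer lymphocytes and TYROBP by most myeloid cells.

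The kept cells numbered 55366 in the intracardiac experiment and 22362 in the IIA experiment, with 482617 to 44834665 UMIs (counted molecules) per intracardiac sample and 2149784 to 27903856 per IIA sample. Levels are given as CPM (counts scaled to a common total): the gene's UMIs over all UMIs, both summed over the cells of 1 type in 1 sample. Mononuclear phagocytes, the macrophage, microglia and monocyte clusters combined, numbered 16133 and 2474. The intracardiac experiment used 3′ and the IIA experiment 5′ sequencing per the labels, so levels are compared only within an experiment. Some samples stood apart. Biotin positive liver replicate 4 held 5 phagocytes and entered no phagocyte test. Biotin positive IIA replicate 4 held 11 macrophages, in which hemoglobin (Hbb-bs) stood at 23794 CPM against at most 2206 CPM in every other IIA sample, and the main IIA results are given with and without it. Intracardiac samples shared at most 7 cell barcodes with each other.

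Trem2 had its highest levels in macrophages of the brain. Microglia (cluster 30, led by Gpr34 and Tmem119 among others) stood at 1237, 1506 and 2275 CPM of Trem2 in the 3 biotin positive brain samples with at least 20 such cells. The other brain macrophages, cluster 28 (led by Ptgds, Ccl12 and Lyve1, genes of border macrophages), stood at 760, 340 and 730 CPM of Trem2. Every microglial sample was thus above every cluster 28 sample, and both types lay above the median of each type outside brain. Among those, macrophage cluster 19, found in lung, liver and bone and with Pf4, Ppbp, Spp1 and Ccl2 among its leading genes, had a median Trem2 level of 214 CPM over 16 samples, with a range of 109 to 609. Monocyte cluster 1 had a median of 123 CPM (75.0 to 150, 12 samples), resident macrophage cluster 5 of bone and liver (led by Cd5l, Vcam1 and Clec4f) 102 CPM (47.0 to 223, 6 samples), and these neighbours overlapped. Alveolar macrophages (cluster 26, led by Plet1 and Ear1) were lower still for Trem2, at 64.0, 53.0, 80.8 and 109 CPM in the 4 positive lung samples. Since the clusters were drawn with these genes among the others, such differences between types are a description and carry no test.

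Tyrobp did not follow its receptor. Its median was 4005 CPM in neutrophils (2779 to 5646, 32 samples), 3886 in monocyte cluster 2 and 3862 in plasmacytoid dendritic cells, and the microglial samples stood at 2452, 3473 and 3080 CPM of Tyrobp, the first of them below and the others within the range of neutrophils. Across 268 profiles, each a cell type in 1 of the 32 intracardiac samples, Spearman's rho was 0.27 between Trem2 and Tyrobp, 0.70 between Trem2 and Apoe, 0.70 between Trem2 and Lgals3, 0.55 between Trem2 and Gpnmb and -0.11 between Trem2 and Cst7. Of 13816 genes compared, the 3 whose pattern was most like that of Trem2 were Fcgr1 (rho 0.86), an Fc receptor, Ms4a6d (0.86), a gene of the MS4A family, and Ctsc (0.83), a cathepsin. Profiles of 1 sample share a library, and these values describe the likeness of patterns across cell types.

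The region just before the start of Trem2 and of Spp1 is shown because these are the receptor that names the list and one of its secreted members. Trem2 lies at chr17:48346401-48354147 and Spp1 at chr5:104435118-104441050, both on the plus strand (GRCm38, GENCODE M21). RefSeq promoter sequences (GRCm38.p6) were given for 7 of the 10 genes, and the 250 bases before each start were searched on both strands. The first motif was TGANTCA, a loose form of the AP-1 site with any base at its centre. The second was GAGGAAGT, the PU.1 type site, and the third CACGTG, the E-box read by the MiT family (MITF, TFEB and TFE3). The first was present in 6.75% of all 32851 promoters of that length, the second in 2.44% and the third in 6.02%. Trem2 held the first, 9 to 3 bases before its start, and Spp1 the second, 113 to 106 bases before the first of its starts, and none of the 7 genes held CACGTG. The sequences are the plus strand 5′ to 3′, chr17:48346151-48346400 and chr5:104434861-104435110, with the matched motif in capitals; a match is a description of the letters only.
Trem2: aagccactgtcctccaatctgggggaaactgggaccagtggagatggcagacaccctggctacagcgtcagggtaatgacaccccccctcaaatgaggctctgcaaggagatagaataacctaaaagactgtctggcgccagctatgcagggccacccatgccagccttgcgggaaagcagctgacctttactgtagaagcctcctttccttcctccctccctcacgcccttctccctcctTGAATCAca
Spp1: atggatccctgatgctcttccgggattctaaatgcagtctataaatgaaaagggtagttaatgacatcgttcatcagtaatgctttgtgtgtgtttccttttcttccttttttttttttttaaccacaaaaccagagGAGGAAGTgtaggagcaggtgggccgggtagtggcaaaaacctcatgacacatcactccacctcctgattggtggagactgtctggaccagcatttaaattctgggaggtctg

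The lipid genes were split over different macrophages. Apoe (chr7:19696109-19699188, minus strand), the apolipoprotein that TREM2 binds, was at 52756, 38408 and 39229 CPM in cluster 28 of the positive brain samples. Resident cluster 5 followed with a median Apoe level of 15384 CPM (5628 to 18117, 6 samples), then microglia with 8312 CPM (6254 to 12148, 3 samples). The ranges of these first 2 types did not overlap, while those of cluster 5 and microglia did. Alveolar macrophages were low in Apoe, at 173, 463, 149 and 21.3 CPM in the positive lung samples. Lpl, the lipase that releases fatty acids from lipoproteins, had the opposite order in these cells: the same alveolar samples stood at 2373, 2180, 2869 and 2419 CPM of Lpl, cluster 5 at a median of 449 (398 to 1321, 6 samples) and cluster 28 at 13.2, 23.1 and 0 CPM. Lpl is among the leading genes that mark the alveolar cluster. Fabp5, a carrier of fatty acids inside the cell, was highest in cluster 19, with a median of 794 CPM (147 to 3313, 16 samples), followed by alveolar macrophages at 337 CPM (171 to 423, 5 samples) and conventional dendritic cells at 289 CPM (26 samples), and these ranges overlapped.

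Of the secreted members, Spp1 had its highest median of all types in cluster 19. Its median there was 2976 CPM with a range of 901 to 26697 over 16 samples, against 373 CPM in microglia (139 to 691, 3 samples), 327 CPM in alveolar macrophages (122 to 421, 5 samples) and 23.1 CPM in resident cluster 5 (0 to 142, 6 samples). All cluster 19 samples were above all samples of these 3 types. Cluster 28 of brain had a median Spp1 level of 96.5 CPM over 3 samples, but its range of 20.4 to 1102 CPM overlapped with that of cluster 19 through positive replicate 2. Spp1 leads cluster 19, so this order follows in part from how the cluster was drawn. The 3 genes most like Spp1 across the 268 profiles were Cstb (rho 0.57), Lmna (0.50) and Ccl2 (0.49), a weaker likeness than the 0.89 of Apoe with its nearest gene, Lgmn. Lgals3 was high in cluster 19 (median 3218 CPM, 1593 to 5375) and in monocyte cluster 1 (median 3047 CPM, 2138 to 3280), whose ranges overlapped, and low in the brain types, at 37.3 to 105 CPM in microglia and 41.6 to 212 CPM in cluster 28.

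Spp1 was also made outside the phagocytes. In biotin positive liver replicate 1, 90 cells of an unnamed cluster led by Clu, Cpa3, Gata2 and Krt18 held 32389 of the sample's 34416 Spp1 UMIs, which is 94.1%. In the other 7 liver samples that cluster had 1 to 20 cells, and it held at most 3.60% of Spp1 UMIs except in positive replicate 4, where it held 42 of 54. In the IIA experiment fibroblast or stromal cells had the highest median Spp1 level, 2007 CPM (897 to 3680, 3 samples), above the 624 CPM of macrophages (118 to 1368, 10 samples with at least 20 cells).

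The membrane and lysosomal members differed again. Gpnmb, a lysosomal glycoprotein induced in lipid-laden macrophages (chr6:49036546-49070929, plus strand), had a median of 210 CPM in alveolar macrophages (195 to 280, 5 samples) and 129 CPM in cluster 19, where it ranged from 6.13 to 831 over 16 samples. It was near 0 in cluster 28, at 0, 10.2 and 0 CPM. Cd9, a tetraspanin, was highest in alveolar macrophages (median 3423 CPM, 2193 to 3825), then in microglia (1179 CPM, 529 to 1347) and cluster 19 (475 CPM, 208 to 851), and the first of these ranges overlapped with no other. Cst7, an inhibitor of cathepsins, was led by NK cells (median 137 CPM, 77.3 to 213, 12 samples) and granulocyte precursors (81.7 CPM), and among the macrophage types its highest median was in microglia, whose samples spread widely, at 14.9, 252 and 74.8 CPM. In brain, cells thinned to 1000 UMIs had a Trem2 UMI in 76.8% ± 5.26 (SD, n = 3) of microglia against 0.214% ± 0.28 (n = 4) of T cells in the negative samples, and an Apoe UMI in 99.4% ± 0.98 (n = 3) of cluster 28 against 12.9% ± 13.9 (n = 4) of those T cells, at median depths of 4796, 3516 and 3128.25 UMIs per cell. In the IIA experiment macrophage cluster 0 (with Mrc1 and complement C1q among its leading genes) had the highest median of all types for Trem2, Apoe, Gpnmb, Lpl, Fabp5 and Lgals3, while Spp1 was led by stromal cells, Cd9 and Tyrobp by neutrophils and Cst7 by granulocyte precursors. No single macrophage type of the intracardiac experiment was thus highest for all 10 genes.

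**Figure D1:**
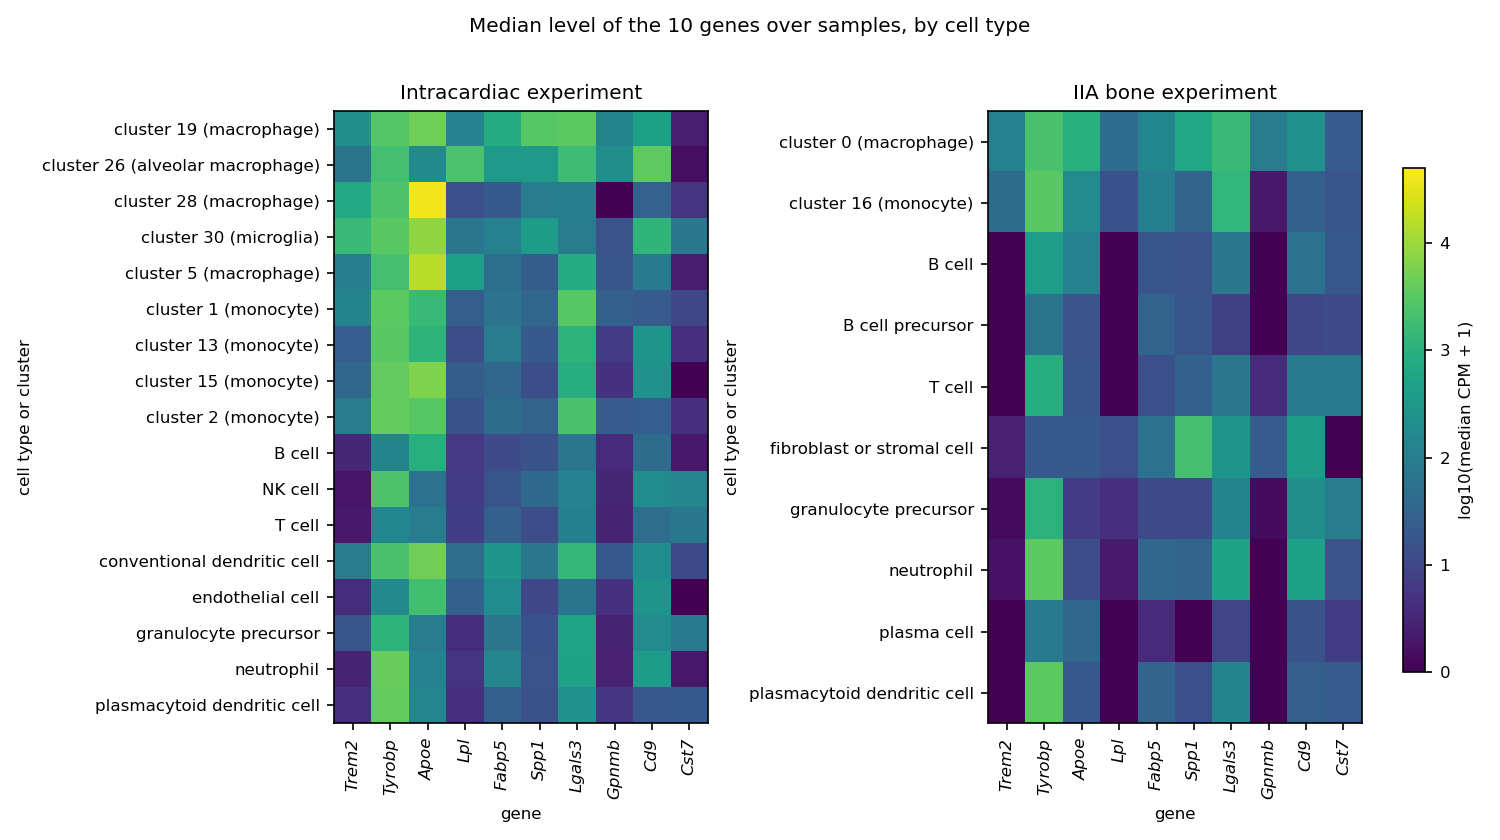
Median level of each of the 10 genes (columns) over samples with at least 20 cells, by cell type or cluster (rows), in the intracardiac (left) and IIA (right) experiments, coloured by log10 of CPM plus 1. Trem2 is highest in microglia (1506 CPM), Apoe in cluster 28, Spp1 and Fabp5 in cluster 19, and Lpl, Gpnmb and Cd9 in alveolar macrophages.

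How many of the genes 1 cell held was counted after every cell had been thinned to 1000 UMIs, so that deep and shallow cells could be compared. In cluster 19, cells with at least 5 of the 10 genes made up 24.1%, 72.5%, 46.9% and 34.8% of cells in the positive lung samples and 11.1%, 24.3%, 18.2% and 30.7% in the negative lung samples. In liver the same cluster gave 50.0%, 51.9% and 63.4% in positive replicates 1 to 3 and 25.0%, 32.6% and 20.0% in negative replicates 2 to 4. The 2 sorts overlapped in lung, where the positive sample was above the negative sample of the same replicate number in all 4 pairs, and did not overlap in liver. Alveolar macrophages gave 39.0%, 34.6%, 43.0% and 30.6% in positive lung, whereas cluster 28 stayed at or below 0.840% and microglia gave 0%, 17.6% and 7.41%. IIA macrophages gave 18.8%, 29.5%, 26.2%, 17.2% and 25.9% in the positive samples with at least 20 cells and 2.50%, 8.42%, 4.35%, 0% and 2.50% in the negative ones, with no overlap. T cells, which should lack most of the genes, gave 0% in every sample with at least 20 of them. The 10 genes include Tyrobp, which most myeloid cells hold, and Lgals3, which was high in a monocyte cluster as well as in cluster 19.

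**Figure D2:**
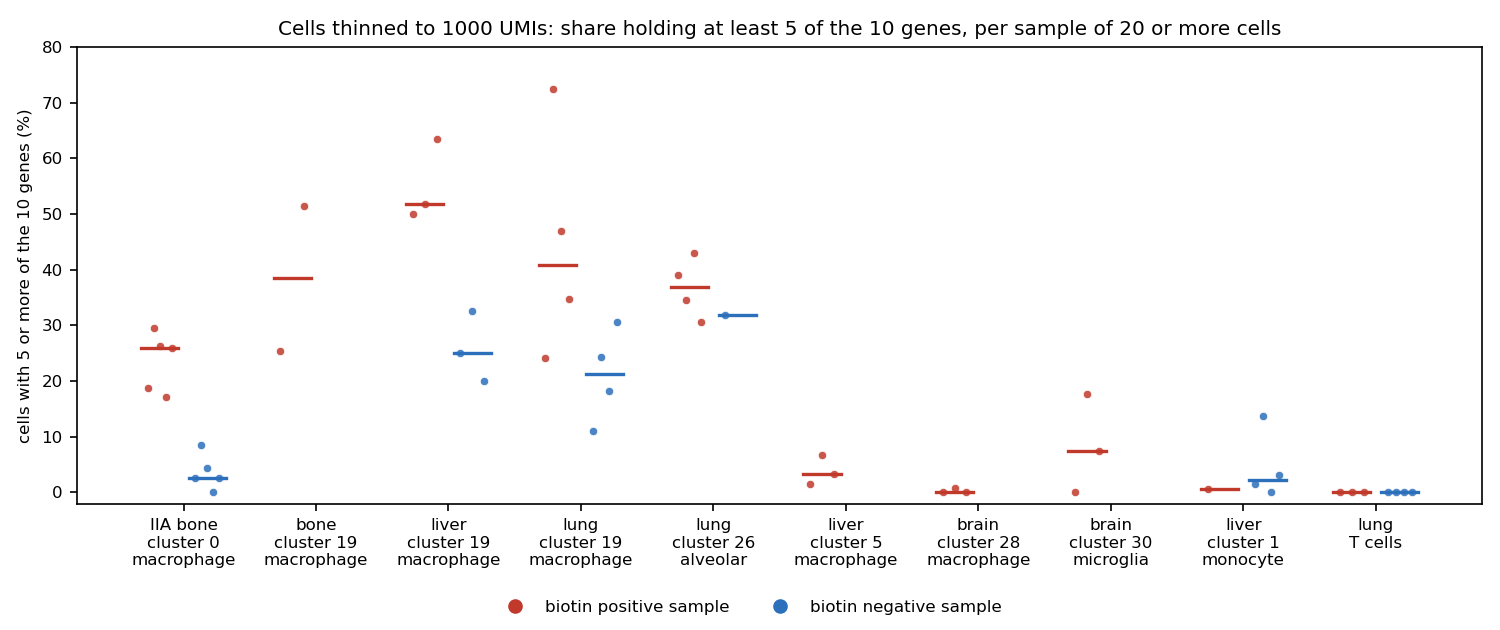
Percent of cells, thinned to 1000 UMIs, that held at least 5 of the 10 genes (vertical axis), by tissue and cluster, with 1 point per sample of at least 20 cells and a line at the median of the group. Cluster 19 of liver and macrophage cluster 0 of IIA bone had every positive sample above every negative one, and the 2 sorts overlapped in cluster 19 of lung.

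The first sort comparison asked whether cells of macrophage cluster 0 next to tumour cells in bone of the IIA experiment differed in these genes from unlabelled cells of that cluster. They are called macrophages by their cluster, but in every negative sample the summed monocyte markers were above the summed macrophage markers, as given after the values, so the 2 sorts also differed in these markers. Within cluster 0, Trem2, Apoe, Fabp5 and Lpl were higher in biotin positive cells. The lowest, median and highest Trem2 levels were 138, 231 and 343 CPM in the 6 positive samples and 25.6, 43.2 and 87.5 CPM in the 6 negative samples. Every positive sample was above every negative one for Trem2. The log2 fold change was 2.16 ± 0.27 (SE, edgeR quasi-likelihood test, adjusted p = 3.7e-05), and without positive replicate 4 it was 2.16 ± 0.27 as well (adjusted p = 5.4e-05). Negative replicate 4, with fewer than 20 cells of the cluster, held the lowest Trem2 level, 25.6 CPM. Cd36 and Axl stood at that same level there and Timp2 at 0 CPM, so it rests on few molecules.

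Apoe ran from 1343 through a median of 3139 to 8531 CPM in positive samples and from 98.3 through 315 to 576 CPM in negative ones, again without overlap, with a log2 fold change of 3.66 ± 0.51 (edgeR adjusted p = 0.00036). Fabp5 ran from 107 through 758 to 1046 CPM against 0 through 74.7 to 152 CPM. The 2 sorts overlapped for Fabp5 through positive replicate 6 alone, and its log2 fold change was 3.01 ± 0.50 (edgeR adjusted p = 0.00093). Lpl ran from 43.6 through 125 to 446 CPM against 0 through 13.5 to 44.2 CPM, with a log2 fold change of 2.79 ± 0.69 (edgeR adjusted p = 0.012), and overlapped by 1 sample of each sort. Without positive replicate 4 the changes were 3.48 ± 0.52 for Apoe, 3.03 ± 0.54 for Fabp5 and 2.46 ± 0.61 for Lpl, and all 3 still passed (edgeR adjusted p = 0.00088, 0.0025 and 0.012). Altogether 4 of the 9 members tested were called, all higher, where 24.1% of all 4750 genes tested were called, 11.7% of all genes higher and 12.5% lower. The median log2 fold change was 1.75 over the members and 0.02 over all genes.

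Spp1 reached a median of 1076 CPM in positive and 150 CPM in negative macrophages, but positive replicate 4, at 13.9 CPM, was below all negative samples. Its log2 fold change was 1.75 ± 0.74 (edgeR adjusted p = 0.11), and without that sample 1.97 ± 0.54 (adjusted p = 0.023). In positive replicate 4 Cd9 stood at 13.9 CPM too, so its Spp1 and Cd9 levels each rest on few molecules. Gpnmb, at medians of 111 and 15.4 CPM, Cd9 at 250 and 173 CPM, Lgals3 at 1596 and 1315 CPM and Tyrobp at 2275 and 2173 CPM overlapped between the sorts and did not pass. Cst7 was too low to be tested. In cells thinned to 1000 UMIs, 21.8% ± 8.78 (SD, n = 5) of positive and 7.44% ± 4.12 (n = 5) of negative macrophages had a Trem2 UMI, against 0.098% ± 0.24 (n = 6) of T cells in the negative samples. For Spp1 the shares were 37.6% ± 6.90, 14.0% ± 7.38 and 2.48% ± 1.44. Median UMIs per cell before thinning were 5533, 3840.5 and 2060.

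Markers of other cells moved with the sort in cluster 0. The summed level of the 30 macrophage markers was 6127 to 19684 CPM in positive and 1547 to 4217 CPM in negative samples, with Clec4f at 0 in the former and Cd163, Cd5l, Clec4f, Lyve1, Marco, Timd4 and Vsig4 at 0 in the latter. The 22 monocyte markers, all detected, summed to 2669 to 6961 CPM in positive and 10509 to 15585 CPM in negative samples, and the 21 neutrophil markers, all detected, to 1395 to 34908 and 8079 to 65698 CPM. C1qa, a complement gene of mature macrophages, ran from 497 to 2365 CPM in positive and from 0 to 204 CPM in negative samples, and the monocyte gene Ly6c2 from 106 to 711 and from 633 to 2245 CPM. The 11 osteoclast markers summed to 264 to 9102 CPM in positive and 180 to 551 CPM in negative samples. Their part in the result was not tested.

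Other genes of the pathway, from lists fixed for this description with earlier results known, were tested in the same macrophages, where 24.1% of all genes were called, 11.7% higher and 12.5% lower. Of 20 further genes of the lipid-associated and disease-associated programmes that were tested, 12 were higher and 1 lower, the largest being Axl (log2 4.31 ± 1.03), a receptor for dying cells, and Timp2 (3.57 ± 0.37), with Ccl3 lower (-0.85 ± 0.30). Of 19 lipid uptake, efflux and storage genes 9 were higher, led by Pltp (3.50 ± 0.82), a phospholipid transfer protein, and Cd36 (3.13 ± 0.47), a fatty acid and oxidised lipid receptor, and 1 was lower. Of 11 genes of the MiT transcription factors and their lysosomal targets 6 were higher and none lower, Mitf itself by 1.24 ± 0.25. Of 11 ligands, receptors and inhibitors 5 were higher, Itga9 (3.51 ± 0.74), an osteopontin-binding integrin chain, and Cd81 (3.02 ± 0.73), a partner of CD9, the most, and 3 were lower, among them Sorl1 (-2.02 ± 0.22), an APOE receptor, and Cd44 (-1.46 ± 0.20), an osteopontin receptor. Of 13 genes of the TREM2 complex and its signalling 4 were called, a share near that of all genes: 2 were higher, Ms4a7 (3.57 ± 0.56) and Ms4a6d (1.29 ± 0.40), and 2 lower, Ms4a6c (-0.91 ± 0.19) and Plcg2 (-0.66 ± 0.17), the phospholipase downstream of TREM2. All these are edgeR log2 fold changes with adjusted p under the 0.05 threshold. Positive replicate 4 held 781 CPM of Axl, against 46.9 to 579 CPM in the other positive samples, and 683 CPM of Timp2, against 178 to 464. Without it Axl changed by 3.75 ± 0.92, Timp2 by 3.31 ± 0.30, Pltp by 3.21 ± 0.80, Cd36 by 3.26 ± 0.40, Itga9 by 3.18 ± 0.63 and Cd81 by 2.91 ± 0.75, all still called. The call of Ccl3 was lost (-0.76 ± 0.28, edgeR adjusted p = 0.063). In the order given, the lists then had 14 of 21, 10 of 19, 5 of 11, 5 of 11 and 2 of 13 genes higher and 0, 1, 0, 3 and 2 lower, where 23.2% of 5855 genes were called.

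**Figure D3:**
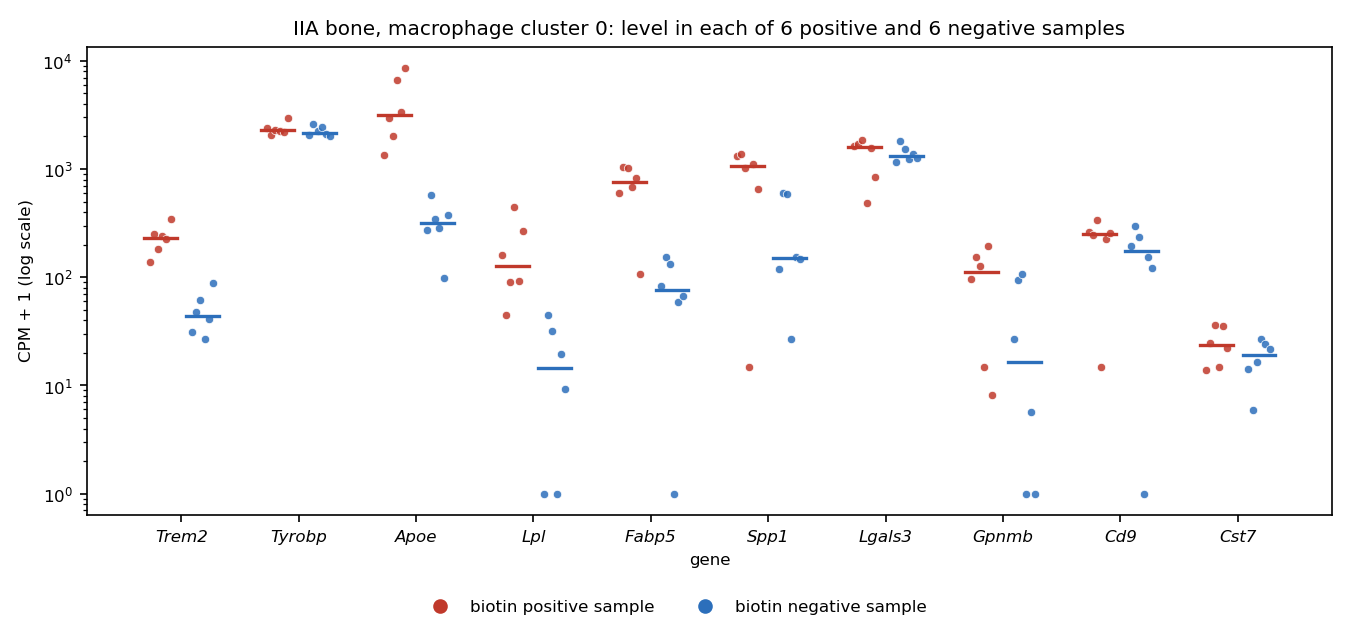
Level of each gene in macrophage cluster 0 of IIA bone, as CPM plus 1 on a log scale, with 1 point per sample (6 biotin positive in red, 6 biotin negative in blue, in order of replicate) and a line at the median of each sort. Trem2 and Apoe have all positive samples above all negative ones, whereas Tyrobp, Lgals3, Cd9 and Cst7 overlap.

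Over all phagocytes of IIA bone, 9 of the 10 members were called, 8 of them higher in the positive sort, where 33.1% of 9071 genes were called (16.4% higher and 16.6% lower). The log2 fold changes ran from 0.95 ± 0.29 for Cst7 through 2.15 ± 0.15 for Trem2 and 3.52 ± 0.76 for Spp1 to 3.79 ± 0.77 for Gpnmb, and the median was 2.37 over the members and -0.03 over all genes. Trem2 ran from 128 through 189 to 250 CPM in the positive samples and from 37.1 through 46.9 to 49.2 CPM in the negative ones, with no overlap. Lgals3 did not pass (0.14 ± 0.26, edgeR adjusted p = 0.72). Tyrobp was lower at the edge of the threshold (-0.31 ± 0.11, edgeR adjusted p = 0.045). That call was lost in 10 of 12 fits that left out 1 sample (without positive replicate 4, -0.26 ± 0.11, adjusted p = 0.087), with RLE scaling, without the low-count filter, with at least 20 cells, with the members left out of the clustering and without the cells of highest Scrublet score (-0.18, adjusted p = 0.27). The call of Cst7 was lost without positive replicate 3 and without those Scrublet cells. Without positive replicate 4 the 8 members called higher were called again, with 2.19 ± 0.16 for Trem2, 3.77 ± 0.59 for Spp1 and 3.91 ± 0.76 for Gpnmb. The makeup of the phagocytes moved with the sort: macrophage cluster 0 made up 67.4% to 99.2% of positive and 3.52% to 30.7% of negative phagocytes, the rest being monocytes. Within the monocytes alone 0 of 9 members tested were called by edgeR or DESeq2, with 1 of 8397 genes (0.0119%) called by edgeR in all and 661 genes at an unadjusted p under 0.05, in 3 positive against 6 negative samples.

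In lung phagocytes Lpl, Cd9, Gpnmb, Fabp5 and Spp1 were higher and Tyrobp and Apoe lower in the positive sort. Of the higher ones, Lpl, Cd9 and Gpnmb had their highest median of all types in alveolar macrophages, and Fabp5 and Spp1 in cluster 19. Over all phagocytes 7 of 10 members were called, 5 higher and 2 lower, where 38.7% of 10186 genes were called. Lpl stood at 1678, 1847, 2217 and 1023 CPM in the positive samples and 38.9, 131, 12.8 and 8.44 CPM in the negative ones, and Cd9 at 2748, 2449, 2820 and 1635 CPM against 175, 239, 47.5 and 123 CPM. For both genes every positive sample was above every negative one. The log2 fold changes were 4.86 ± 0.88 for Lpl (edgeR adjusted p = 0.0035) and 3.74 ± 0.46 for Cd9 (adjusted p = 0.00046). Gpnmb (2.39 ± 0.47), Fabp5 (1.95 ± 0.36) and Spp1 (2.13 ± 0.69) were higher as well, and Tyrobp (-1.09 ± 0.15) and Apoe (-1.15 ± 0.34) lower. With the replicate block Lgals3 was lower too (-0.55 ± 0.09, adjusted p = 0.0012). Leaving out 1 sample ended the call of Spp1 in 5 of 8 cases and that of Apoe in 3 (negative replicates 2 and 3 and positive replicate 3).

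Trem2 did not pass in lung phagocytes, at 96.6, 140, 91.6 and 191 CPM against 86.8, 76.0, 67.9 and 137 CPM (log2 0.19 ± 0.30, edgeR adjusted p = 0.64). The sorts overlapped, but the positive sample was above the negative sample of the same replicate number in all 4 pairs, and with the replicate block the change was 0.19 ± 0.12 (adjusted p = 0.24). Alveolar macrophages made up 45.9% to 89.0% of positive and 0.225% to 4.82% of negative phagocytes. Without monocytes, 3 of 9 members tested were called, where 10.3% of 8067 genes were called: Cd9 higher (1.70 ± 0.39, edgeR adjusted p = 0.026) and Apoe (-1.56 ± 0.43) and Tyrobp (-0.76 ± 0.21) lower. The median over these members was -0.32, against 0.03 over all genes. Under the replicate block Cd9 no longer passed (1.81 ± 0.46, adjusted p = 0.056) and Lgals3 did (-0.85 ± 0.18, adjusted p = 0.0065). Leaving out 1 sample ended the call of Apoe in 7, of Tyrobp in 6 and of Cd9 in 4 of 8 cases, without a change of sign. The macrophages of the negative sort were mostly cluster 19 and those of the positive sort mostly alveolar, so that this comparison too sets different clusters against each other.

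Within cluster 19 of lung alone, a comparison added after the clusters had been seen, Trem2 stood at 184, 597, 277 and 295 CPM in positive and 135, 194, 116 and 173 CPM in negative samples, and Spp1 at 3425, 2716, 3052 and 4036 against 942, 2541, 901 and 1944 CPM. Spp1 did not overlap between the sorts and Trem2 overlapped by 1 sample of each. Neither passed, with log2 fold changes of 1.02 ± 0.32 for Trem2 (edgeR adjusted p = 0.20) and 0.99 ± 0.32 for Spp1 (adjusted p = 0.20). None of the 9 members tested was called by edgeR or DESeq2, where edgeR called 0.49% of 5104 genes, and 639 genes had an unadjusted p under 0.05. In the fit with the replicate block, which called 8.86% of all genes, 3 were called, Trem2 (0.93 ± 0.20, adjusted p = 0.0087) and Lpl (2.85 ± 0.58, adjusted p = 0.031) higher and Tyrobp (-0.44 ± 0.11, adjusted p = 0.017) lower. The replicate numbers of lung phagocytes deviated together in all 4 pairs. The monocyte markers summed to 8738 to 14357 CPM in positive and 16124 to 21667 CPM in negative cells of this cluster, the macrophage markers to 15702 to 25276 and 9971 to 19617 CPM, and their part was not tested.

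In brain, Trem2 and Apoe were higher in biotin positive phagocytes. Trem2 stood at 687, 378, 1150 and 2013 CPM in the positive samples and 104, 95.1, 94.4 and 181 CPM in the negative ones. Apoe stood at 30928, 35196, 13326 and 11854 CPM against 1152, 5232, 4308 and 2833 CPM. Neither gene overlapped between the sorts. The log2 fold change was 2.85 ± 0.49 for Trem2 (edgeR adjusted p = 0.0024) and 2.48 ± 0.55 for Apoe (adjusted p = 0.0075).

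Lgals3 went the other way in brain, at 1044, 138, 309 and 206 CPM in positive and 2896, 1687, 1577 and 2679 CPM in negative phagocytes, with a log2 fold change of -2.68 ± 0.60 (edgeR adjusted p = 0.0076). Cd9 was higher (2.19 ± 0.69, adjusted p = 0.032) and Tyrobp lower (-0.50 ± 0.18, adjusted p = 0.047), though each call was lost in 6 of 8 fits that left out 1 sample. That makes 5 of 10 members called, where 39.6% of 9171 genes were called (19.6% higher), and the median log2 fold change was 1.61 over the members and 0.02 over all genes. DESeq2 called more members at a similar share of all genes, as given in the last section. With the replicate block, whose numbers paired all 4 samples here, Lpl (higher, adjusted p = 0.021) and Cst7 (2.31 ± 0.71, adjusted p = 0.042) passed too. Among other genes of the lipid-associated and disease-associated programmes 14 of 21 were higher, with Igf1 (5.45 ± 0.66) and Csf1 (4.28 ± 1.22) the most, and 3 lower, among them Vim (-2.87 ± 0.52), a cytoskeletal gene. Of 19 lipid uptake, efflux and storage genes 5 were higher and 2 lower, with a median of -0.07, a share called near that of all genes. The cholesterol exporter Abca1 (3.76 ± 0.51) was among the former and the apolipoprotein Apoc2 (-2.77 ± 0.54) among the latter.

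The positive and negative phagocytes of brain were of different types. Positive replicates 1 and 2 were 77.5% and 92.6% cluster 28 and positive replicates 3 and 4 were 68.0% and 80.4% microglia, whereas monocyte clusters made up most of the negative phagocytes. The monocyte markers summed to 4168 to 8998 CPM in positive and 20310 to 22586 CPM in negative phagocytes, the microglia markers to 1328 to 13777 and 359 to 574 CPM. Without monocytes 0 of 9 members tested were called by edgeR or DESeq2, with 2 of 5932 genes (0.0337%) called by edgeR in all and 344 at an unadjusted p under 0.05, in 4 positive and 3 negative samples. There Trem2 stood at 930, 387, 1344 and 2079 CPM in positive macrophages against 297, 599 and 1480 CPM in negative ones, and the sorts overlapped (log2 0.51 ± 0.64). With the replicate block, which called 0.91% of all genes, Lgals3 (-2.29 ± 0.28, adjusted p = 0.0013) and Lpl (-1.37 ± 0.27, adjusted p = 0.032) were lower. In cluster 28 alone, added after the clusters had been seen, 0 of 5 members tested were called by edgeR or DESeq2 (0% of 1012 genes, 58 at an unadjusted p under 0.05), and Apoe stood at 38408 to 52756 CPM in the 4 positive samples and 33078 to 42791 CPM in the 3 negative samples with 10 or more such cells.

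In liver no member passed in phagocytes by edgeR, where 0% of 10079 genes were called and 2051 had an unadjusted p under 0.05, in 3 positive and 4 negative samples; DESeq2 called 3 members and 4.91% of all genes. Lpl came nearest, at 264, 1269 and 419 CPM in positive replicates 1 to 3 and 35.2, 97.4, 65.4 and 28.2 CPM in the negative samples, which did not overlap (log2 3.23 ± 0.59, edgeR adjusted p = 0.081). With the replicate block, whose numbers paired the samples, the change of Lpl was 2.89 ± 0.27 (adjusted p = 0.0043), in a fit that called 4.06% of all genes. The median was 1.31 over the members and 0.02 over all genes. The makeup of the phagocytes moved with the sort: resident cluster 5, in which Lpl had a median of 449 CPM, made up 19.7%, 94.97% and 37.0% of the phagocytes in positive replicates 1 to 3 and 0% to 3.84% in the negative samples. Its part in the result was not tested.

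In cluster 19 of liver, also added after the clusters had been seen, Gpnmb stood at 246, 675 and 783 CPM in positive replicates 1 to 3 and at 35.7, 72.8 and 6.84 CPM in negative replicates 2 to 4. Fabp5 stood at 1294, 1149 and 2679 against 389, 675 and 362 CPM, and Trem2 at 609, 506 and 234 against 186, 137 and 109 CPM. For all 3 genes the sorts did not overlap. None passed edgeR's test over all 5279 genes, where DESeq2 called 4 members and 0.777% of all genes, with log2 fold changes of 3.68 ± 0.60 for Gpnmb and 1.84 ± 0.37 for Fabp5 (edgeR adjusted p = 0.091 each) and 1.59 ± 0.35 for Trem2 (adjusted p = 0.13), and 4 genes (0.0758%) were called by edgeR in all, with 501 at an unadjusted p under 0.05. On the lists were 2 of these 4, Cd36 (2.13 ± 0.31) and the lysosomal tetraspanin Cd63 (1.92 ± 0.31). The block fit, which rests on only 2 complete pairs, called 4.64% of all genes (3.01% of all genes higher) and among them 6 members, all higher: Gpnmb, Fabp5, Trem2, Lpl, Spp1 and Cd9. The monocyte markers summed to 7495 to 14651 CPM in positive and 15796 to 20163 CPM in negative cells, and their part was not tested.

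In intracardiac bone the positive samples disagreed with each other. Spp1 in phagocytes stood at 620, 1070, 36.6 and 13.8 CPM in the positive samples and 45.4, 33.3, 35.8 and 24.4 CPM in the negative ones, and Gpnmb at 37.2, 193, 10.98 and 4.58 against 20.8, 34.3, 15.8 and 13.01 CPM. Positive replicates 1 and 2 were above all negative samples for both genes and positive replicate 4 was below them. The log2 fold changes were 3.53 ± 1.16 for Spp1 (edgeR adjusted p = 0.35) and 1.57 ± 0.85 for Gpnmb (adjusted p = 0.56), and none of the 10 members was called by edgeR or DESeq2, where edgeR called 0.0834% of 9587 genes and 1027 had an unadjusted p under 0.05. Of their phagocytes 155 and 395 were macrophages in replicates 1 and 2, and 6 and 4 in replicates 3 and 4. Within macrophages alone bone could not be fitted, since no negative sample had 10 such cells.

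**Figure D4:**
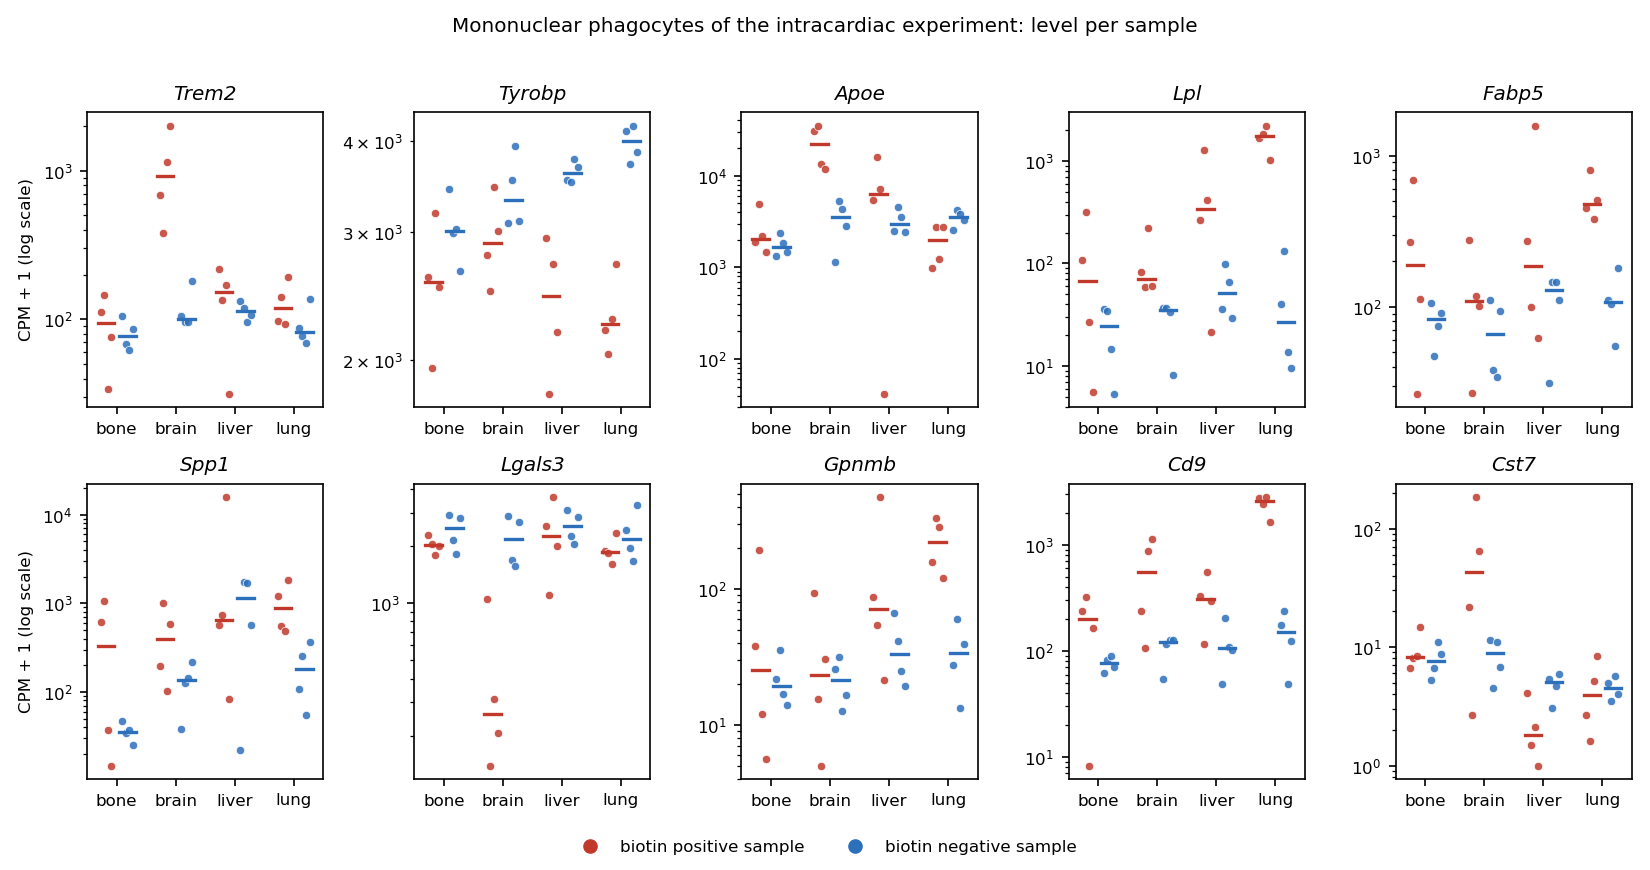
Level of each gene in mononuclear phagocytes of the intracardiac experiment, as CPM plus 1 on a log scale, by tissue, with 1 point per sample (biotin positive in red, biotin negative in blue, in order of replicate) and a line at the median of each sort. Trem2 and Apoe separate the sorts in brain and Lpl and Cd9 in lung, while the positive samples of bone and liver spread widely.

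Monocytes were also compared alone, in 4 negative samples per tissue against 4 positive samples of bone and lung, 3 of liver and only 2 of brain. In bone, brain, liver and lung 0 members were called by edgeR or DESeq2, where edgeR called 0%, 0%, 0.012% and 0.0124% of genes and 304, 510, 149 and 460 genes had an unadjusted p under 0.05. The member medians were -0.10, 0.05, 0.00 and -0.03 on the log2 scale. The replicate block, which called 0.505%, 0.36% and 3.19% of all genes in brain, liver and lung, called Cd9 higher in monocytes of brain (1.40 ± 0.33), liver (0.83 ± 0.22) and lung (1.12 ± 0.14), Spp1 higher in liver (2.19 ± 0.19) and Lgals3 lower in lung (-0.40 ± 0.06).

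**Figure D5:**
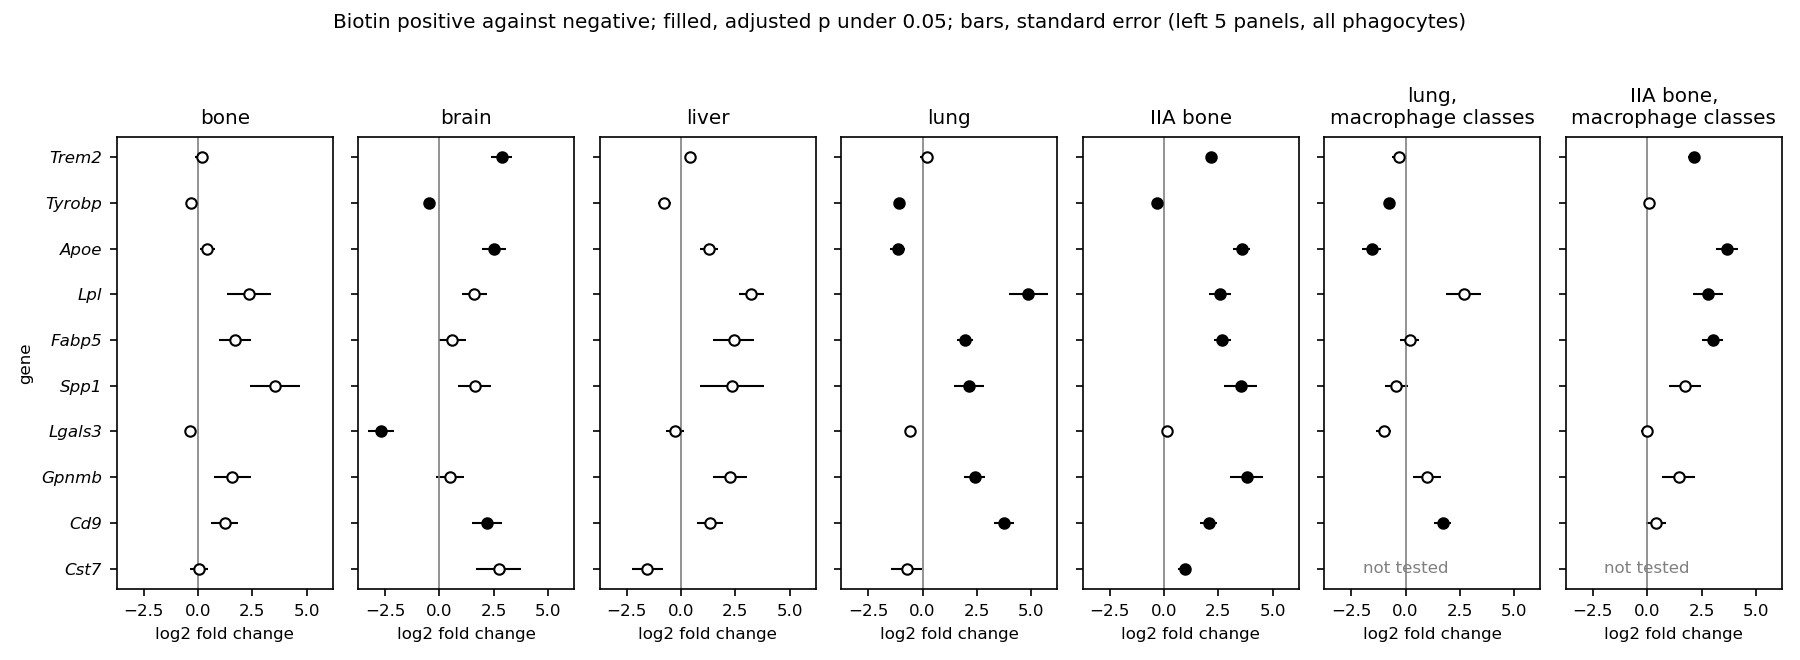
edgeR log2 fold change of each gene, biotin positive against negative, with its standard error, for all phagocytes of 4 tissues and of IIA bone and for macrophages without monocytes in lung and IIA bone; filled points passed an adjusted p of 0.05. Trem2 passed in brain and in both IIA comparisons, while its change in lung phagocytes was 0.19.

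Whether the sort difference itself differed between the 4 tissues was tested by the interaction of tissue and sort over all phagocytes. It did for 3 members, Trem2 (edgeR adjusted p = 0.0021), Apoe (0.0026) and Lgals3 (0.014), where 13.9% of 11626 genes were called. With the replicate block more members, and a larger share of all genes, were called, as given in the last section. Trem2 changed by 2.85 in brain against 0.16 in bone, 0.40 in liver and 0.19 in lung. Apoe changed by 2.48 in brain, 1.29 in liver, 0.43 in bone and -1.15 in lung. Lgals3 changed by -2.68 in brain and by between -0.58 and -0.28 elsewhere. The clusters that made up the phagocytes differed by sort and by tissue. A difference between tissues and a difference in clusters therefore cannot be told apart here.

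Biotin positive macrophages were then compared between tissues, each tissue against the mean of the others, in 2 bone, 4 brain, 3 liver and 4 lung samples. These 4 contrasts share samples, and they set different macrophage types against each other: clusters 28 and 30 made up most of the class in brain, cluster 26 in lung and clusters 5 and 19 in liver and bone. A tissue and its macrophage types cannot be told apart here. Brain differed most, with 7 of 10 members called where 32.2% of 11022 genes were: Cst7 (4.87 ± 0.99), Trem2 (2.61 ± 0.37) and Apoe (2.52 ± 0.41) were higher, and Lgals3 (-3.33 ± 0.54), Lpl (-2.84 ± 0.45), Gpnmb (-2.49 ± 0.79) and Fabp5 (-2.48 ± 0.74) lower. Without 1 sample the Gpnmb call was lost in 4 cases and that of Fabp5 in 2, brain positive replicates 3 and 4. Lgals3 stood at 622, 117, 157 and 114 CPM in brain, 3313 and 2070 CPM in bone, 2152, 1106 and 3986 CPM in liver and 1880, 1846, 1679 and 2352 CPM in lung, and no brain sample reached the level of another tissue. In lung 4 members were called where 19.2% of genes were, Lpl (2.64 ± 0.37) and Cd9 (2.45 ± 0.56) higher and Apoe (-2.59 ± 0.49) and Trem2 (-1.39 ± 0.41) lower. The Trem2 call in lung was lost without any 1 of 5 samples. In bone and liver 0 were called by edgeR (0 and 1 by DESeq2), where edgeR called 0.853% and 2.87% of genes and DESeq2 1.63% and 4.69%, and 1209 and 1631 had an unadjusted p under 0.05.

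Over all kept cells of a sample, where a change in cell numbers and a change in RNA per cell cannot be told apart, 8 of 10 members were called in IIA bone (50.1% of 12625 genes, 26.9% higher), 7 higher and Tyrobp lower (-1.15 ± 0.25). Trem2 was higher by 2.38 ± 0.75 (edgeR adjusted p = 0.019), with 26.3, 149 and 86.8 CPM in positive replicates 1 to 3 but 8.37, 6.02 and 9.09 CPM in replicates 4 to 6, within the 5.77 to 11.3 CPM of the negative samples. The calls of Trem2 and Spp1 were lost without positive replicate 2 (edgeR adjusted p = 0.052 each). They were also lost without the low-count filter, and the replicate block ended the calls of Trem2, Spp1 and Fabp5. In lung 6 were called, all higher (18% of 12331 genes, 6.67% lower), from Trem2 (1.20 ± 0.25) to Lpl (5.33 ± 0.88). That of Fabp5 was lost in 5 of 8 fits that left out 1 sample (adjusted p of 0.037 to 0.087 over the 8). In brain 2 were called (2.9% of 11064 genes, 2.72% higher), Trem2 higher (3.06 ± 0.50) and Lgals3 lower (-1.62 ± 0.33). Leaving out 1 sample ended the Trem2 call in 4 and the Lgals3 call in 7 of 8 cases. With the block, which called 6.55% of all genes, Apoe and Lpl were called in brain too. DESeq2 also called more members in brain, and a larger share of all genes, as given in the last section. In bone and liver 0 were called by edgeR or DESeq2 (0% of genes each by edgeR, 0.423% and 3.64% by DESeq2), with 977 and 1569 genes at an unadjusted p under 0.05.

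Outside intracardiac bone most Trem2 molecules of the median positive sample lay in phagocytes, but not those of every member. In positive samples phagocytes held a median of 90.4% of Trem2 UMIs in brain, 90.2% in lung, 87.3% in liver, 49.2% in bone and 96.6% in IIA bone. For Lpl the medians were 74.4%, 98.8%, 76.5%, 32.2% and 80.1%. For Cst7, the gene that killer lymphocytes and granulocyte precursors also use, they were 39.5%, 35.9%, 7.26%, 1.16% and 1.35%, so that in the median sample most Cst7 molecules came from other cells. Single samples went the other way, with up to 79.8% of Cst7 UMIs in phagocytes in brain and up to 70.0% in lung.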

How the data were processed

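Single-cell RNA-seq of biotin positive and negative cells was analysed from 32 intracardiac samples (bone, brain, liver and lung, 4 per tissue and sort) and 1 hashtagged pool of 12 IIA bone samples. The deposited values are whole UMI counts per gene and cell, made by the authors with cellranger 6.1.2 (intracardiac) and 7.1.0 (IIA) per the file headers; the submitters' processing notes also name Seurat and mm10. Pooled cells were assigned to samples by a hashtag with at least 10 counts and 3 times the second hashtag. The matrix names its hashtags CMO301 to CMO312 and the deposited sample table C0301 to C0312; they were matched by number alone, and every IIA value rests on that match.

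Cells with at least 500 UMIs, 200 genes and at most 15% mitochondrial UMIs were kept, without removal of doublets, and clustered with scanpy 1.11.5 and igraph 0.11.9 (2000 variable genes, 30 components, 15 neighbours, resolution 1). Clusters were named from 28 marker lists. The 10 genes, the marker lists and the pathway lists were chosen with earlier results of these data known. Genes named beyond the 10 were the 2 most changed in each direction of each list and the 3 most like Trem2, Spp1 and Apoe. Some genes that this rule or the leading genes of a cluster would name are not reported here.

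Raw counts were summed per sample and cell class with at least 10 cells and tested with edgeR 4.0.16 in R 4.3.3 (quasi-likelihood, TMM, low-count filter), with Benjamini-Hochberg adjustment over all genes and a threshold of 0.05. P-values measure the spread between these samples, which the labels do not say came from separate mice. Where a share of cells carries a ±, it is the SD between samples.

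Samples of the same replicate number deviated together in every pair (correlation over 0.1) for phagocytes of brain, liver and lung and all cells of bone, brain and liver, but not for the other sets checked, and the replicate block was run for all. Other alternatives were RLE scaling, no low-count filter, DESeq2 1.42.0, leaving out each sample, leaving out the 5% of cells with the highest Scrublet scores, clustering without the 10 genes, and at least 20 cells. The scripts were tested on simulated data.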

Additional observations from a re-analysis of the deposited data

Results flagged for a closer look

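Of 70 groups of 4 to 10 samples examined for a sample far from the others, 8 held one, and chance gives about 1 in 20. In IIA macrophages these were Tyrobp in positive replicate 6, at 2944 CPM, and Cd9 in positive replicate 4, the sample of 11 cells, at 13.9 CPM. In macrophage cluster 19 of lung they were Cst7 in positive replicate 4 (16.6 CPM), Fabp5 in positive replicate 2 (3313 CPM) and Tyrobp in negative replicate 1 (2841 CPM). In cluster 28 of positive brain they were Apoe in replicate 1 (52756 CPM) and Spp1 (1102 CPM) and Gpnmb (10.2 CPM) in replicate 2.

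The difference between sorts in phagocytes differed between the 4 tissues for Trem2 (edgeR adjusted p = 0.0021), Apoe (0.0026) and Lgals3 (0.014). The clusters that made up these phagocytes differed by sort and by tissue too.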

How the results depend on the processing

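No call of a member changed sign under any alternative run. Counts that moved by over 1.5 times are given first. The share of all genes called by the same alternative stands in brackets. With the replicate block the number of members called moved from 2 to 4 in all cells of brain (6.55%), from 8 to 5 in all cells of IIA bone (48.7%), from 0 to 1 in liver phagocytes (4.06%), from 0 to 1, 2 and 2 in monocytes of brain, liver and lung (0.505%, 0.36% and 3.19%), from 0 to 2 in brain macrophages (0.91%), from 0 to 3 and 6 in cluster 19 of lung and liver (8.86% and 4.64%), and from 3 to 5 in the test between tissues (24.3%). With DESeq2 it was 5 in all cells of brain (11.1%), 8 in brain phagocytes (39.7%), 3 in liver phagocytes (4.91%), 2 in liver macrophages (2.43%), 4 in cluster 19 of liver (0.777%) and 1 for liver against the other tissues (4.69%). Without the low-count filter it was 1 in liver macrophages (1.6%), 1 in lung macrophages (4.78%), 2 and 4 in cluster 19 of lung and liver (1.53% and 1.34%) and 1 in cluster 28 (0.0399%). Leaving out 1 sample at a time gave 6 to 9 in all cells of IIA bone, 0 to 2 in brain and 5 to 6 in lung; 7 to 9 in IIA phagocytes, 0 to 1 in bone, 3 to 5 in brain, 0 to 3 in liver and 5 to 7 in lung; 4 to 5 in IIA and 0 to 3 in lung macrophages; 0 to 3 in cluster 19 of liver; 5 to 8 for brain, 0 to 1 for liver and 3 to 5 for lung against the other tissues; and 3 to 4 in the test between tissues. The cause was not tested. Replicate numbers paired the IIA samples and all cells of lung only in part (correlations of 0.078 to 0.56 and -0.092 to 0.48 over all cells). There the block ended the calls of Trem2 (1.42, adjusted p = 0.11), Spp1 (1.73, 0.085) and Fabp5 (1.49, 0.087) in all IIA cells and of Tyrobp in IIA phagocytes (-0.30, 0.097), and added Spp1 in IIA macrophages (2.05, 0.0025) and Cst7 in lung (-2.14, 0.022). Across tissues it ended the call of Gpnmb in brain (-2.34, 0.079). For single genes DESeq2 kept 220 results, ended 0 and added 20 calls, among them Lgals3 in lung phagocytes, Lpl in lung macrophages and Spp1 and Tyrobp in brain against the other tissues. Having no low-count filter kept 227, ended 12 and added 7, the calls ended being those of Trem2 and Spp1 in all IIA cells, Fabp5 in all lung cells, Cd9 in brain phagocytes, Apoe and Spp1 in lung phagocytes, Apoe and Tyrobp in lung macrophages, Tyrobp in IIA phagocytes, Gpnmb and Fabp5 in brain and Trem2 in lung against the other tissues. RLE scaling kept 244 results and ended 2 calls, and leaving the 10 genes out of the clustering kept 192, ended 1 and added 1. Shares of cells with a UMI moved with depth: Trem2 in IIA macrophages was 9.81% at 500 UMIs and 54.9% unthinned in positive and 18.1% unthinned in negative samples, Spp1 26.7%, 53.0% and 27.0%, Trem2 in microglia 55.5% and 96.8%, and in unthinned T cells of brain Apoe 29.2% and Trem2 0.753%.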
